A study of Mus musculus with 6 samples.

Results

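Cytochromes P450 of families 1 to 4 are the enzymes with which an animal oxidises drugs, plant compounds and other foreign molecules, along with fatty acids, arachidonic acid products and some steroids. The genes described here are those whose symbol is Cyp followed by 1, 2, 3 or 4 and then a subfamily letter, and that are named alone by at least one probe set of the array's annotation. There were 56 such genes, on 69 probe sets, out of 18193 genes named by a single-gene probe set. Where a gene had several, the brightest one on average across the 6 arrays stood for it. Read as a plain prefix, Cyp1 to Cyp4 would also take in 13 genes of families with 2-digit numbers (such as Cyp27a1). They are left out here, and including them left the count of changed genes at 6.

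The samples were jejunum, a stretch of small intestine between duodenum and ileum, from 6 male mice on the C57BL/6 background, aged 7 to 10 weeks and caged singly. One group (mice 1, 2 and 3) were double knockouts that lacked both TIS7 (Ifrd1) and SKMc15 (Ifrd2), a pair of related genes described as regulators of transcription, and the other (mice 1, 3 and 4) was wild type. All 6 ate a synthetic diet rich in saturated fat, with 42% of energy from milk fat and 0.2% from cholesterol. The labels give 3 weeks on this diet for the harvested tissue and up to 8 weeks for the study, and do not say how the alleles were made or whether the groups were littermates. The series' title concerns intestinal lipid absorption and obesity, and the comparison made is which P450 transcripts differ between the genotypes on this diet. Each mouse was measured on its own Affymetrix mouse whole-genome array, and the 3 arrays per group limit the precision of every value.

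P450 enzymes are haem proteins of the endoplasmic reticulum that take electrons from P450 oxidoreductase, with help from cytochrome b5. In the small intestine they stand mainly in the enterocytes of the villus, where Cyp3a and Cyp2c enzymes meet drugs and dietary compounds before the liver does. Families 1 to 3 are best known for foreign compounds and are switched on by the receptors AhR, CAR (Nr1i3) and PXR (Nr1i2), whereas Cyp4 enzymes mostly hydroxylate the far end of fatty acids, and Cyp2c and Cyp2j enzymes turn arachidonic acid into epoxides.

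Both deleted genes were low in the double knockout. Ifrd2 had log2 levels of 2.64, 2.74 and 2.59 in double knockout mice 1, 2 and 3, against 8.20, 8.32 and 8.61 in wild type mice 1, 3 and 4, a fall of at least 20.8-fold with levels under 4 raised to 4 (limma adjusted p = 2.37e-05). Ifrd1 had 6.27, 4.80 and 4.85 in the double knockout and 10.00, 9.84 and 9.91 in wild type (log2 fold change -4.61 ± 0.38 SE, limma adjusted p = 0.00894), with the highest remaining level in mouse 1. The labels do not give the deleted exons, so whether either probe set lies in the deleted part is not known here. Enterocyte markers were bright on every array, with Vil1, the villus actin-binding protein, between 13.05 and 13.12. The liver's defining transcript Alb was at most 2.42 on any array. Of the ileal markers with a probe set, Fabp6, Slc10a2 and Fgf15 lay under 4 on all arrays, whereas Cubn was bright on all, between 11.05 and 12.01.

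Of the 56 P450 genes, 21 reached a log2 level above 4 on at least 3 of the 6 arrays and were tested, and the other 35 stayed under 4 on all 6. Of the tested genes, 20 were above 4 on every array. Cyp2c29 was above it on 4 arrays, 3 of them wild type, so its entry rested on the group in which it was higher. Next above the limit stood Cyp2u1 and Cyp2c55, whose arrays ranked 3 of 6 had levels of 5.30 and 6.31. Just below it were Cyp2r1, Cyp4f18 and Cyp2d10, with 3.12, 2.93 and 2.75 at that rank. Cyp2r1, the vitamin D hydroxylase of the liver, reached 2.93, 3.08 and 2.78 in the double knockout and 3.46, 3.12 and 3.73 in wild type.

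The tested genes fell into 11 of the 19 subfamilies with a probe set. Family 1 had 3 genes and none was tested: Cyp1a1 and Cyp1a2, the classical AhR targets, lay between 1.16 and 1.97, and Cyp1b1 between 2.29 and 2.96. Family 2 had 13 of 35 genes tested, family 3 had 3 of 5 and family 4 had 5 of 13. Among subfamilies with no tested gene, Cyp2a12, Cyp2f2, Cyp2g1 and Cyp4x1 lay between 1.18 and 1.89, and the Cyp4a genes Cyp4a12a, Cyp4a14 and Cyp4a31 between 1.04 and 2.95. A probe set shared by Cyp4a31 and Cyp4a10, which stands for no single gene, was bright, between 10.20 and 12.07. Of the remaining genes that were not tested, 6 Cyp2c genes lay between 1.22 and 2.64, 6 Cyp2d genes between 1.68 and 3.11, and 3 Cyp2b genes between 1.14 and 1.86. A further 3 Cyp2j genes lay between 1.29 and 2.31, 2 Cyp3a genes between 0.78 and 2.52, and 4 Cyp4f genes between 1.80 and 3.13. A level this low says that the probe set was not above the limit used here, not that the gene was silent.

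Of the 21 tested P450 genes, 6 were lower in the double knockout and 0 higher, at an adjusted p of at most 0.05 by limma, which fits all probe sets at once. Over all 18013 tested probe sets, 1.93% were called lower and 2.54% higher. The 6 genes were Cyp2j6, Cyp2u1, Cyp2d22, Cyp2c68, Cyp3a25 and Cyp4v3, so 4 belonged to family 2, 1 to family 3 and 1 to family 4. The median log2 fold change was -0.45 over the 21 genes, against 0.03 over all tested probe sets, and -0.43 over the 20 genes above 4 on every array. Fold changes were negative for 18 of the 21 genes (46.4% of all tested probe sets), and in 15 every double knockout level lay below every wild type level (14.8% of all tested probe sets); in 0 did every level lie above (19.5%). These counts include Cyp2c29, whose entry rested on its wild type levels. Among the 20 genes above 4 on every array, 17 fold changes were negative and 14 genes were lower without overlap. At an unadjusted p under 0.05, 16 of the 21 were lower and 1 was higher, against 11.8% and 15.3% of all tested probe sets. In whole tissue, fewer cells of a type and less RNA per cell cannot be told apart.

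The number of calls depended on single mice. Without wild type mouse 1, 3 or 4, or without double knockout mouse 3, 0 of the 21 genes passed, in fits that called only 0.244%, 0.239%, 0.117% and 0.322% of all probe sets lower. Without double knockout mouse 1, 2 genes passed (0.561% of all probe sets), Cyp2j6 and Cyp2j9. Without double knockout mouse 2 the count was 6 (1.33%), made up of Cyp2j6, Cyp2u1, Cyp2d22, Cyp2c68, Cyp2c23 and Cyp4b1. Of these, Cyp2j9, Cyp2c23 and Cyp4b1 had not passed with all mice. Cyp3a25 and Cyp4v3 passed in 0 of the 6 fits that left out a mouse. The median stayed between -0.49 and -0.40 in these fits. The mean difference between 3′ and 5′ control probe sets of Actb and Gapdh, a measure of RNA integrity, was 0.60, 0.41 and 0.61 in double knockout mice 1, 2 and 3 and 0.35, 0.49 and 0.36 in wild type mice 1, 3 and 4. The median deviation of the 21 P450 genes from the wild type mean was -0.48, -0.29 and -0.39 in double knockout mice 1, 2 and 3 and 0.0048, -0.026 and 0.015 in wild type mice 1, 3 and 4. Double knockout mice 1 and 3 had the largest 3′ to 5′ differences and the lowest P450 medians. Wild type mouse 3 had a larger 3′ to 5′ difference than double knockout mouse 2. Its P450 deviation is taken from a mean that includes this mouse, so a small value is partly built in. With the 3′ to 5′ difference as a covariate the median was -0.38 and 0 genes passed, in a fit that called 0.0666% of all probe sets lower. How far RNA integrity takes part in the P450 differences was not tested.

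**Figure D1:**
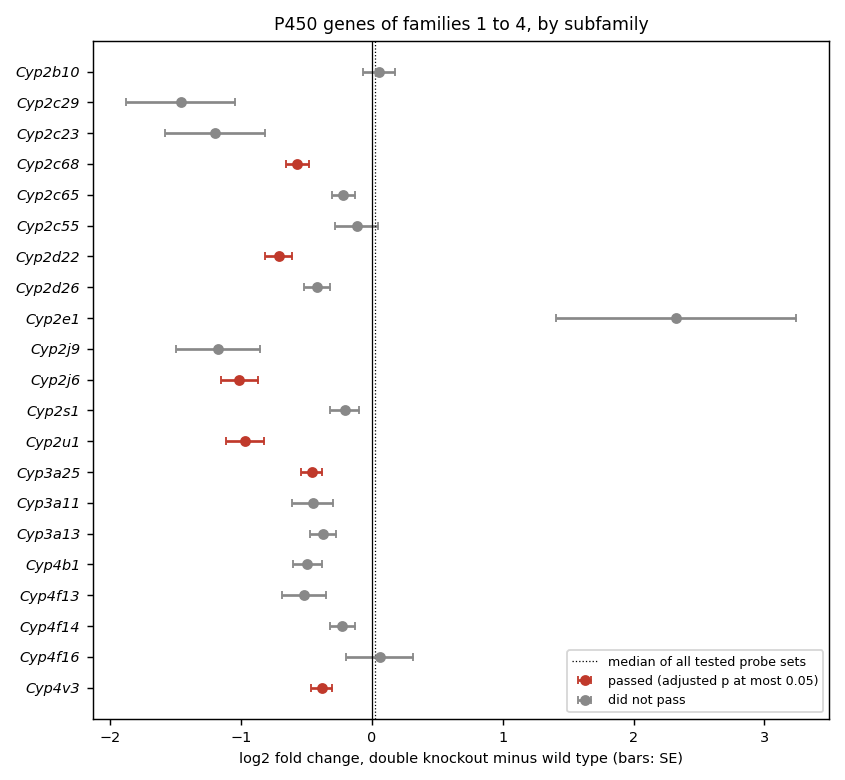
Log2 fold change, double knockout minus wild type (x axis), of the 21 tested P450 genes (rows, grouped by subfamily), with limma's standard errors as bars. Red points are the 6 genes that passed and grey points the 15 that did not, and the dotted line at 0.03 is the median of all tested probe sets: 18 of 21 points lie left of 0, and Cyp2e1 lies far right at 2.32 with the widest bar.

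The subfamily Cyp2j, whose enzymes convert arachidonic acid to epoxides and hydroxylated products, held the gene with the smallest p. Cyp2j6 had log2 levels of 9.79, 10.04 and 10.22 in double knockout mice 1, 2 and 3, against 11.03, 10.88 and 11.18 in wild type mice 1, 3 and 4. The groups were separated by more than the range of either. The log2 fold change was -1.01 ± 0.14 (SE), a 2.02-fold lower level (limma adjusted p = 0.0231), and the other Cyp2j6 probe set gave -1.11 ± 0.15 (limma adjusted p = 0.0223). Its neighbour Cyp2j9, with no other protein-coding gene between them in GRCm38.p6, had 4.91, 6.16 and 6.06 in the double knockout and 6.88, 6.79 and 6.98 in wild type. All 3 double knockout levels were below the wild type range, but mouse 1 lay more than 1 below the other two. Cyp2j9 did not pass (-1.17 ± 0.32, limma adjusted p = 0.0838). Without double knockout mouse 1 it passed at -0.78 (limma adjusted p = 0.0465).

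**Figure D2:**
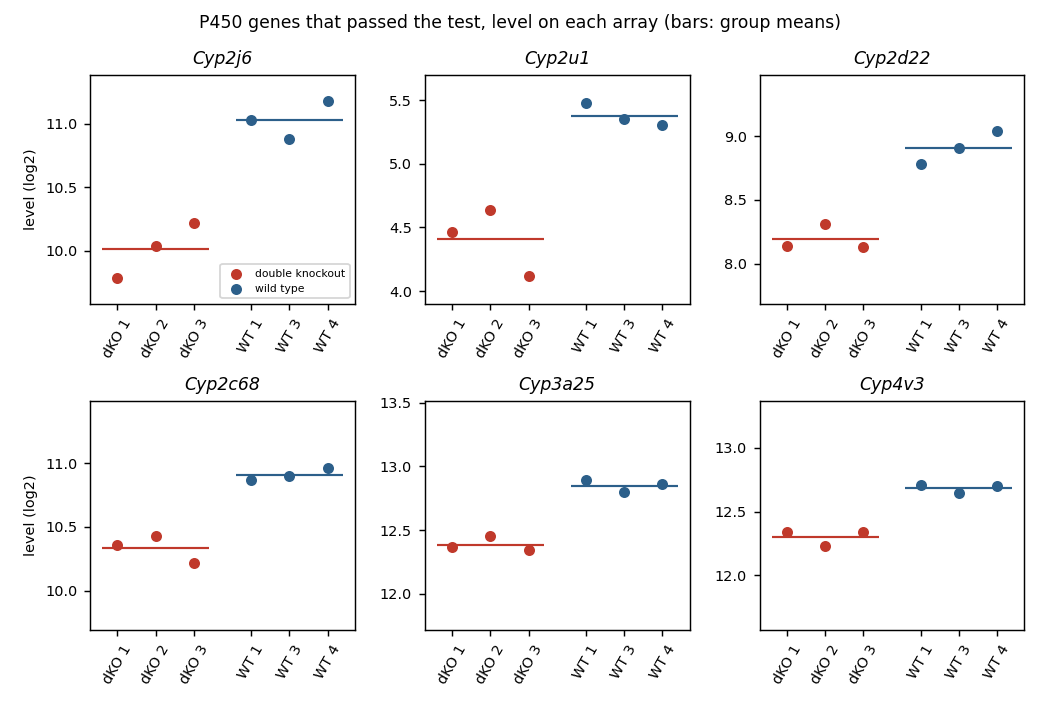
Log2 level (y axis) on each array (x axis) of the 6 P450 genes that passed, with double knockout mice in red, wild type mice in blue and horizontal bars at the group means; the y axes span different ranges. In every panel the 3 double knockout points lie below the 3 wild type points, with the widest separation for Cyp2j6 (means 10.02 and 11.03).

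In Cyp2u, a subfamily of 1 gene whose enzyme hydroxylates long-chain fatty acids, Cyp2u1 had 4.46, 4.64 and 4.12 in the double knockout, against 5.48, 5.35 and 5.30 in wild type. The groups did not overlap, though the double knockout levels were close to the limit of 4. A second, dimmer probe set of the gene stayed under 4 and overlapped, at 3.07, 3.03 and 2.87 in the double knockout and 2.99, 3.04 and 3.19 in wild type, and was not tested. The log2 fold change of the brighter one was -0.97 ± 0.15 (limma adjusted p = 0.0265).

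Cyp2d22, often described as the mouse counterpart of the human drug-metabolising enzyme CYP2D6, had 8.14, 8.31 and 8.13 in the double knockout and 8.78, 8.91 and 9.04 in wild type. The difference of -0.71 ± 0.10 passed (limma adjusted p = 0.0257), and its second probe set gave -0.73 ± 0.12 (limma adjusted p = 0.0308). The other tested member, Cyp2d26, had 12.47, 12.59 and 12.32 in the double knockout and 12.82, 12.84 and 12.96 in wild type. It also showed no overlap between the groups but did not pass (-0.42 ± 0.10, limma adjusted p = 0.0655). With a variance prior that follows the level (limma-trend) it had an adjusted p of 0.0216, in a fit that called 9 of the 21 genes and 4.04% of all probe sets lower.

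Cyp2c, the largest subfamily tested with 5 genes, had 1 gene that passed and 5 negative fold changes. Among the 5 is Cyp2c29, whose entry rested on its wild type levels. The median was -0.57 over the 5 genes and -0.39 over the 4 above the limit on every array. Its enzymes oxidise drugs and make epoxides of arachidonic acid. Cyp2c68 had 10.36, 10.43 and 10.22 in the double knockout, against 10.87, 10.90 and 10.96 in wild type, a tight separation of -0.57 ± 0.09 (limma adjusted p = 0.0277). Cyp2c65, known from mouse intestine, had 11.57, 11.74 and 11.58 in the double knockout and 11.85, 11.85 and 11.84 in wild type. Its levels did not overlap, but the difference was small and did not pass (-0.22 ± 0.09, limma adjusted p = 0.164). Many Cyp2c genes are close in sequence, and whether these probe sets also detect relatives was not tested.

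The other 3 Cyp2c genes had larger spreads and did not pass. Cyp2c29, a CAR target in mouse liver, had 3.47, 4.57 and 3.17 in the double knockout and 5.77, 5.12 and 4.68 in wild type. The groups nearly touched, and mice 1 and 3 of the double knockout were under the limit, so the log2 fold change of -1.46 ± 0.42 (limma adjusted p = 0.0904) rests partly on levels below it and was -1.005 with levels under 4 raised to 4. Cyp2c23, an arachidonic acid epoxygenase, had 5.34, 6.65 and 5.39 in the double knockout and 6.56, 7.19 and 7.24 in wild type. Double knockout mouse 2 lay within the wild type range, and the difference did not pass (-1.20 ± 0.38, limma adjusted p = 0.110); without that mouse it was -1.63 (limma adjusted p = 0.0405). Cyp2c55 overlapped between the groups, at 6.55, 6.12 and 5.93 in the double knockout and 6.31, 6.39 and 6.24 in wild type (-0.11 ± 0.16, limma adjusted p = 0.680).

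The Cyp3a genes, which encode broad drug and steroid oxidases, were bright on all arrays, and the 3 tested genes differed by similar amounts. Cyp3a25 had 12.37, 12.45 and 12.34 in the double knockout, against 12.89, 12.80 and 12.86 in wild type, and passed at -0.46 ± 0.08 (limma adjusted p = 0.0344). Cyp3a13 had 11.93, 12.13 and 12.01 in the double knockout and 12.39, 12.29 and 12.50 in wild type (-0.37 ± 0.10, limma adjusted p = 0.0754). Cyp3a11, the main PXR target among mouse Cyp3a genes, had 11.64, 12.09 and 12.17 in the double knockout and 12.51, 12.45 and 12.29 in wild type (-0.45 ± 0.16, limma adjusted p = 0.129). None of the 3 overlapped between the groups, and the larger error of Cyp3a11 came with the low level in double knockout mouse 1. Cyp3a11 and Cyp3a25 stand side by side in GRCm38.p6, and Cyp3a13 lies apart from them on the same chromosome.

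In family 4, the fatty acid hydroxylases, 1 of 5 tested genes passed. Cyp4v3, whose human counterpart CYP4V2 is mutated in a hereditary crystalline retinal dystrophy, had 12.34, 12.23 and 12.34 in the double knockout, against 12.71, 12.65 and 12.70 in wild type. It passed narrowly at -0.39 ± 0.08 (limma adjusted p = 0.0496), while its other probe set gave -0.66 ± 0.10 (limma adjusted p = 0.0265). Cyp4b1 had 10.24, 10.54 and 10.24 in the double knockout and 10.89, 10.85 and 10.77 in wild type, with no overlap, and missed the threshold (-0.49 ± 0.11, limma adjusted p = 0.0569). It passed in 4 of 18 alternative fits. Of the genes called lower above, Cyp4v3 passed in 7 of the 18 and Cyp3a25 in 9. Cyp2j6 passed in 12, and Cyp2c68, Cyp2d22 and Cyp2u1 in 11 each.

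The Cyp4f genes, whose enzymes inactivate leukotrienes and hydroxylate fatty acids, had 3 tested genes and none passed. Cyp4f13 had 7.33, 7.93 and 7.85 in the double knockout and 8.14, 8.28 and 8.24 in wild type (-0.52 ± 0.17, limma adjusted p = 0.114). Cyp4f14, a leukotriene B4 hydroxylase, had 12.15, 12.04 and 11.96 in the double knockout and 12.19, 12.27 and 12.36 in wild type (-0.23 ± 0.09, limma adjusted p = 0.181). Both were lower in every double knockout mouse than in any wild type mouse without passing. Cyp4f16 overlapped, at 11.15, 10.33 and 10.43 in the double knockout and 10.93, 10.34 and 10.46 in wild type. Its difference of 0.06 had a 95% interval of -0.55 to 0.67, and its other probe set stood at -0.30 ± 0.20 (limma adjusted p = 0.361). A further probe set is annotated to 2 Cyp4a genes at once, Cyp4a10 and Cyp4a31. The probe sets of Cyp4a31 alone lay under 4 as given above, and the shared probe set was used for neither gene. It had 10.20, 10.94 and 11.17 in the double knockout and 11.44, 12.07 and 11.73 in wild type (-0.98 ± 0.28, limma adjusted p = 0.0894).

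**Figure D3:**
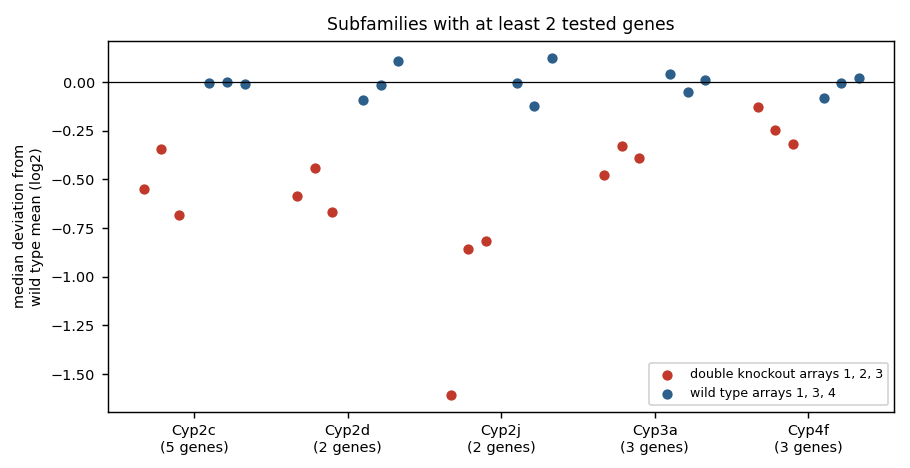
Median deviation from the wild type mean (y axis, log2) over the tested genes of each P450 subfamily with at least 2 such genes (x axis), with 1 point per array: red for double knockout mice 1, 2 and 3 from left to right, blue for wild type mice 1, 3 and 4. All double knockout points lie below 0, from -0.13 for Cyp4f in mouse 1 to -1.61 for Cyp2j in mouse 1, and no test was made on these medians. The Cyp2c points include Cyp2c29, whose entry rested on its wild type levels.

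Fold changes were positive for 3 of the 21 tested genes, Cyp2b10, Cyp2e1 and Cyp4f16. Cyp2b10, a CAR target that responds to phenobarbital, had 11.35, 11.32 and 11.11 in the double knockout and 11.35, 11.00 and 11.26 in wild type, with full overlap. Its difference of 0.06 ± 0.12 (limma adjusted p = 0.800) had a 95% interval of -0.24 to 0.35, and the gene's other 2 tested probe sets gave 0.05 and 0.09. Cyp2s1, a P450 of epithelia outside the liver that lies next to Cyp2b10 in GRCm38.p6, had 8.26, 8.33 and 8.59 in the double knockout and 8.66, 8.57 and 8.56 in wild type. Only double knockout mouse 3 reached the wild type range, and the difference was negative but did not pass (-0.21 ± 0.11, limma adjusted p = 0.271).

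Cyp2e1, the ethanol-inducible P450 that is abundant in liver and also present in fat, had the largest positive difference of the 21 and the widest spread. Its levels were 7.33, 8.70 and 9.09 in double knockout mice 1, 2 and 3, against 6.08, 7.86 and 4.22 in wild type mice 1, 3 and 4. The double knockout mice were high and wild type mouse 4 was low, but wild type mouse 3 lay above double knockout mouse 1. The log2 fold change of 2.32 ± 0.92 did not pass (limma adjusted p = 0.166), and leaving out wild type mouse 3 or 4 moved it to 3.23 and 1.41.

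Markers of fat cells also varied across the arrays, and 7 of them had a probe set. Car3, a carbonic anhydrase abundant in adipocytes, had 12.31, 12.50 and 12.83 in the double knockout and 12.12, 12.29 and 10.52 in wild type. Retn, the adipocyte hormone resistin, had 4.95, 5.81 and 6.13 in the double knockout and 4.35, 4.80 and 2.98 in wild type, and Adipoq, which encodes adiponectin, had 9.53, 9.75 and 10.15 in the double knockout and 9.90, 10.38 and 8.28 in wild type. Cidec, a lipid droplet protein, had 9.43, 9.52 and 9.65 in the double knockout and 9.25, 9.48 and 9.05 in wild type. Wild type mouse 4 was the lowest of the 6 mice for these 4, as for Cyp2e1, and not for the other 3. Lep, which encodes leptin, had 2.97, 2.51 and 2.21 in the double knockout and 3.79, 4.60 and 2.32 in wild type. The lipases Lipe and Pnpla2 had 7.88, 8.04 and 7.77 and then 8.86, 9.36 and 9.16 in the double knockout, against 8.07, 8.24 and 8.07 and then 9.31, 9.20 and 9.02 in wild type. For Lep and Lipe the lowest mouse was double knockout mouse 3, and for Pnpla2 double knockout mouse 1. Of 6 tested adipocyte markers, 0 passed and 4 had positive fold changes. Levels of all 7 with a probe set, Lep included, were also summed on the linear scale. The log2 of this sum ran from 12.82 to 13.30 in the double knockout and from 11.60 to 12.97 in wild type. Such a sum mainly follows the brightest marker, which was Car3 on every array. This list was chosen after the Cyp2e1 values were seen, and the part of fat tissue in the Cyp2e1 levels was not tested. Of 9 hepatocyte markers with a probe set, 7 were not tested, and Alb, Fga, Fgb, Fgg, Ahsg, Tat and Apoh were all under 4 on every array. The other 2, which did not pass, are Ttr, with 6.17, 7.26 and 7.23 in the double knockout and 6.70, 6.60 and 6.30 in wild type, and Hp, with 4.27, 4.75 and 6.29 in the double knockout and 4.12, 5.66 and 3.94 in wild type. Hp, the plasma protein haptoglobin, was like Cyp2e1 highest in double knockout mouse 3 and lowest in wild type mouse 4, and its part in the Cyp2e1 result was not tested.

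**Figure D4:**
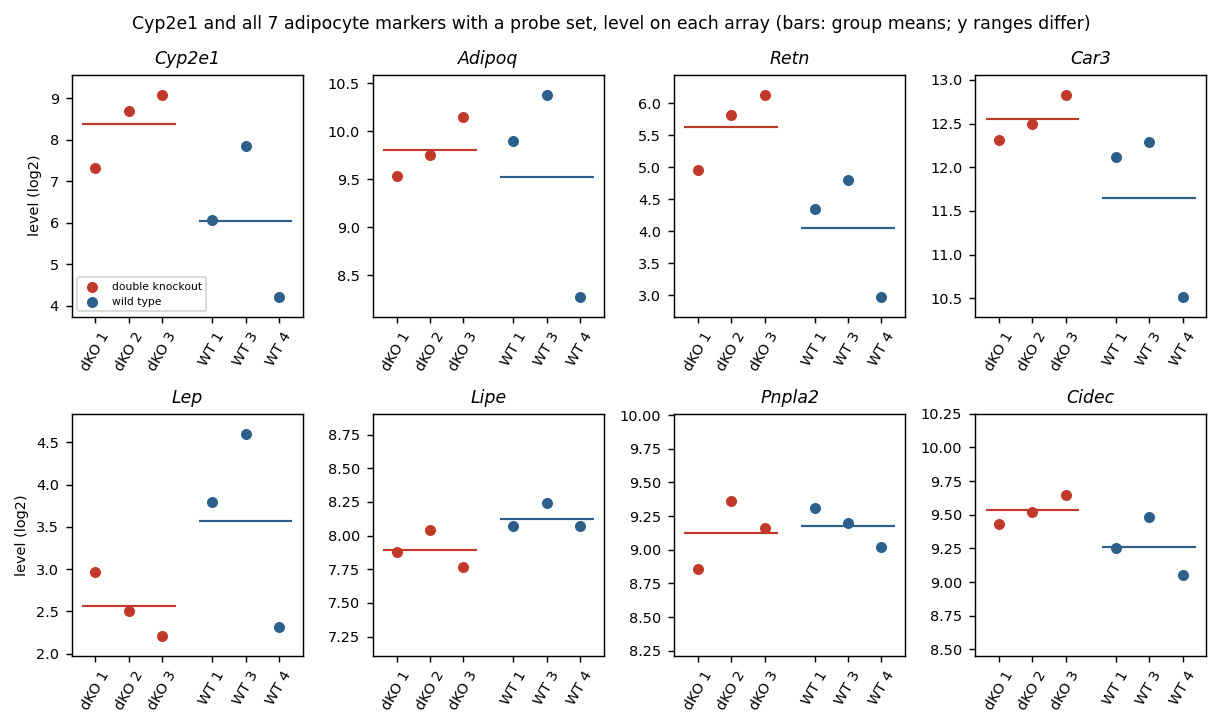
Log2 level (y axis, a different range in each panel) of Cyp2e1 and of the 7 adipocyte markers with a probe set on each array (x axis), double knockout mice in red and wild type mice in blue, with bars at the group means. Wild type mouse 4 has the lowest point for Cyp2e1 (4.22) and for 4 of the 7 markers (Adipoq, Retn, Car3 and Cidec), and not for Lep, Lipe and Pnpla2.

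Within the double knockout, the 3 mice did not share the P450 difference evenly. Mouse 1 had the lowest level of the 3 for 10 of the 21 genes, mouse 3 for 9 and mouse 2 for 2. Over all tested probe sets the corresponding shares were 33.8%, 29.7% and 36.5%. For 17 of the 21 genes the SD over double knockout mice was larger than over wild type mice. The share over all tested probe sets was not computed for this, so whether it is particular to P450 genes is not known. The SDs of the 6 genes that passed in the double knockout ran from 0.06 to 0.27, and those of the 15 that did not pass from 0.095 to 0.92; a small spread is itself part of passing.

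The DNA upstream of the tested genes was searched for sites of factors known to act on P450 or gut genes. RefSeq promoter sequences (GRCm38.p6) were at hand for 18 of the 21 genes, and the 250 bases before the start were read on both strands for 11 motifs, of which 9 are given. The HNF4 motif CAAAGTCCA, the site of nuclear factors active in liver and gut, was found in 3 of the 18 (Cyp2c65, Cyp2c68 and Cyp3a11) and in 0.451% of all 27025 genes with a promoter. Its first letters alone, the HNF4 core CAAAGT, were found in 7 (14.1% of all genes). The nuclear receptor half-site AGGTCA was found in 3 (Cyp2c29, Cyp3a11 and Cyp3a25; 15.8%), the half-site AGTTCA in 3 (13.4%) and a looser direct repeat of the first, with 1 base between, in 0 (0.400%). The CDX motif TTTATN was found in 12 (41.0%), the longer TTTATTG in 1 (4.89%), the TATA box TATAAA in 6 (14.3%) and the AhR core GCGTG in 6 (30.9%). The HNF4 core lies within the HNF4 motif and the shorter CDX motif within the longer. The first half-site can form part of the direct repeat, and a TATA box on one strand always matches the shorter CDX motif on the other. A match is only a description of the letters, and of the 3 genes with the HNF4 motif, 1 had passed. Cyp2c65 and Cyp2c68 belong to the same subfamily and lie on the same chromosome, so their matches may not be independent. The promoters to print were chosen after the matches were seen. They show where the letters lie in Cyp2c68 (chr19:39741102-39741351 on the minus strand), Cyp2c65 (chr19:39060756-39061005 on the plus strand), Cyp3a11 (chr5:145879855-145880104 on the minus strand) and Cyp3a25 (chr5:146009619-146009868 on the minus strand). Capitals mark the HNF4 motif in the first 3 and the half-site, once on each strand, in Cyp3a25; each run ends at the base before the start.
Cyp2c68: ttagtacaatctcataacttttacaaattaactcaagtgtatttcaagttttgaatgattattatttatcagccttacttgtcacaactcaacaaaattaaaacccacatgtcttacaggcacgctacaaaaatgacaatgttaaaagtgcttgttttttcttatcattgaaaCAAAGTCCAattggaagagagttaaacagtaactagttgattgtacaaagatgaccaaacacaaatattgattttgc
Cyp2c65: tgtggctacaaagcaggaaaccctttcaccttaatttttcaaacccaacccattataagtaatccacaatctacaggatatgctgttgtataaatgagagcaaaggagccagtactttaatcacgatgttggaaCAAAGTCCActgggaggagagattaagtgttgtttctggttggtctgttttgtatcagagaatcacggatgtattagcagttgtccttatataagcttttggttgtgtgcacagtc
Cyp3a11: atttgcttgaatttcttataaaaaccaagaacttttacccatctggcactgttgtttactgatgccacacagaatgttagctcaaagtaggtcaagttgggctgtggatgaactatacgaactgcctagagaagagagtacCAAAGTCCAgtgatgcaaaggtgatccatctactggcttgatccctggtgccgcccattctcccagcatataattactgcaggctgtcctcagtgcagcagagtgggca
Cyp3a25: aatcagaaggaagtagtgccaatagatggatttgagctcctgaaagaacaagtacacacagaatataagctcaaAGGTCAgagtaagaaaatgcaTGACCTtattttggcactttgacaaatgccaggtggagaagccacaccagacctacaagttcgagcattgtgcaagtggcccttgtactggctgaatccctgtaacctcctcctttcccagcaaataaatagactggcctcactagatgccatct

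In these windows the HNF4 motif ended 69 bases before the start in Cyp2c68, 108 in Cyp2c65 and 101 in Cyp3a11, reading toward the gene in each. Among the factors that bind it, Hnf4g had 9.90, 9.91 and 9.50 in the double knockout and 10.60, 10.37 and 10.68 in wild type (-0.78 ± 0.15, limma adjusted p = 0.0412). Hnf4a, its better known relative, was 11.61 ± 0.025 in the double knockout and 11.51 ± 0.030 in wild type (SD, n = 3 each), a difference of 0.11 that did not pass (limma adjusted p = 0.392). Whether either factor has a part in the P450 levels was not tested.

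The receptors and regulators of P450 genes showed no common direction. Of 19 tested, 1 rose and 1 fell (Hnf4g), beside 2.54% and 1.93% of all tested probe sets. The other 17 did not pass, and the median log2 fold change was 0.07. Ppard, a fatty acid-sensing nuclear receptor, had 8.40, 7.96 and 8.55 in the double knockout and 7.26, 7.60 and 7.49 in wild type, and rose by 0.85 ± 0.17 (limma adjusted p = 0.0489). The xenobiotic receptors overlapped between the groups, with differences of 0.25 ± 0.15 for Nr1i2 (PXR), -0.09 ± 0.15 for Nr1i3 (CAR) and 0.16 ± 0.17 for Ahr. Ppara, which drives Cyp4a genes, had 8.97, 10.03 and 10.22 in the double knockout and 10.29, 10.33 and 10.37 in wild type, with a low level in mouse 1 (-0.59 ± 0.31, limma adjusted p = 0.265). Of 9 tested PPARA target genes 0 passed (median -0.02), and Ehhadh, a peroxisomal enzyme of fatty acid oxidation, stood at -0.38 ± 0.10 (limma adjusted p = 0.0786). The tested AhR targets outside the P450s, Tiparp and Nqo1, did not pass.

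Genes that serve the P450 reaction were read against the 4.47% of all tested probe sets that passed in either direction. Of 6 tested electron donors and haem-binding partners, 0 passed, with a median of -0.07. P450 oxidoreductase, the main donor, was not among them and is not analysed here. Cyb5r1, a cytochrome b5 reductase, stood at 0.68 ± 0.18 (limma adjusted p = 0.0789) and Pgrmc1, a haem-binding partner of P450 enzymes, at -0.24 ± 0.08 (limma adjusted p = 0.112). Of 10 tested genes of haem synthesis and breakdown, 1 fell and 0 rose (median -0.06). That gene was Blvrb, a biliverdin reductase, with 7.32, 7.32 and 7.26 in the double knockout and 7.64, 8.00 and 7.98 in wild type (-0.57 ± 0.12, limma adjusted p = 0.0480). Alas1, the rate-limiting enzyme of haem synthesis, had 9.87, 10.11 and 10.17 in the double knockout and 9.93, 10.22 and 10.02 in wild type, with overlap (limma adjusted p = 0.988). In arachidonic acid and epoxide metabolism, 0 of 7 tested genes passed (median -0.26). That median was -0.064 without double knockout mouse 1, -0.057 without double knockout mouse 3, -0.15 without wild type mouse 3 and -0.10 with levels under 4 raised to 4. Ephx2, the epoxide hydrolase acting on the products of Cyp2c and Cyp2j enzymes, stood at -0.29 ± 0.11 (limma adjusted p = 0.151).

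P450 genes of other families were read in the same fit. Of 19 with a probe set, 6 were tested, 0 passed and 4 had positive fold changes, with a median of 0.17. Cyp51, the lanosterol demethylase of cholesterol synthesis, stood at 0.52 ± 0.18 (limma adjusted p = 0.127) and Cyp20a1 at 0.21 ± 0.10 (limma adjusted p = 0.244). Whether the 2 sets of genes differ was not tested. None of the 21 tested genes lies on the chromosomes that carry Ifrd1 and Ifrd2; of all 56, 2 do (Cyp1a1 and Cyp1a2), and neither was above the limit.

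Cell type markers were compared between the same 6 mice. Of 12 tested enterocyte markers, 0 passed and 10 had negative fold changes, with a median of -0.07. Their mean log2 level ran from 13.11 to 13.22 in the double knockout and from 13.21 to 13.26 in wild type. Lct, Apob, Slc5a1, Apoa1, Fabp1, Apoa4, Vil1 and Fabp2 were lower in every double knockout mouse than in any wild type mouse. The other tested enterocyte markers, Alpi, Anpep, Slc2a5 and Mttp, overlapped between the groups. Over all tested probe sets, 14.8% were lower without overlap. Lct, lactase, stood at -0.29 ± 0.08 (limma adjusted p = 0.0847). Of 10 crypt and dividing cell markers, 3 rose (Cdk1 by 0.60, Top2a by 0.55 and Mcm5 by 0.52) and 0 fell, beside 2.54% and 1.93% of all tested probe sets, and the median was 0.36, with mean levels from 8.76 to 8.98 in the double knockout and from 8.46 to 8.60 in wild type. The part of these markers in the P450 differences was not tested. Of the regional markers, Cubn, which increases toward the ileum, fell by 0.78 and was the only tested ileal marker. Of the genes listed as duodenal, Gata4 and Slc40a1 stood at 0.50 ± 0.12 and 0.30 ± 0.20 (limma adjusted p 0.0625 and 0.355). Cybrd1 and Pdx1, also listed as duodenal, were not tested. Whether the sampled region differed between the groups was not tested. Medians of the other lists were -0.08 for Paneth, -0.04 for goblet, 0.18 for enteroendocrine, 0.49 for fibroblast, 0.33 for macrophage and 0.04 for smooth muscle markers, with 0 members passing in any of these. Of 2 tested tuft cell markers 1 fell (Rgs13, by 1.00), and 0 of the 2 tested hepatocyte, 1 pancreatic and 2 colonic markers passed.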

How the data were processed

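RNA from each jejunum (500 ng, biotin-labelled) went onto its own array, per the labels' protocols. The authors deposited log2 levels per probe set and array, and the submitters' processing notes name GCRMA 2.18.0. No settings were found; the log2 scale was read from the values. GCRMA models background from the probes' base composition, so low levels are the least certain.

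Annotation gave 1 gene for 34958 of 45101 probe sets and several for 932, and genes were taken from the first kind, with symbols updated through GRCm38.p6. The 18013 probe sets above 4 on at least 3 arrays, without the 64 controls, entered limma 3.58.1 (R 4.3.3; lmFit, then eBayes, without trend or covariates; two-sided; Benjamini-Hochberg adjustment, threshold 0.05). SEs and 95% intervals are limma's. The code was tested on simulated data: a first criterion, on the share of large changes recovered, was missed and was replaced after that was seen by checks of bias, false calls and recovery by size. Each array was counted as a mouse because the labels number the mice within each group. Within groups, every pair of arrays differed by over 0.1 in at least 62.5% of probe sets. That shows only that no array was a copy of another, and cannot tell separate mice from repeat arrays. Shared mouse numbers were not taken as pairs.

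Members and lists were chosen with earlier results of these data known. By the rule for named genes, levels on every array are given for members that passed, for the brightest and the smallest-p gene of each subfamily, and for large differences without overlap; the remaining tested members were added. List genes are those that passed or the 2 of smallest p, and a few more chosen for their role after values were seen. Alternatives changed the filter, scaling, low values, variance model, weights, covariates, probe sets, members and mice. Of the motifs searched, 2 are not reported here. Figures used matplotlib 3.10.9.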

Additional observations from a re-analysis of the deposited data

How the results depend on the processing

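Leaving out each mouse in turn gave 0 to 6 lower P450 genes (6 with all mice), 0 to 0 higher, a median from -0.49 to -0.40, and 0 to 1 higher and 0 to 0 lower genes in the partner and regulator lists (1 and 2 with all mice). With the 3′ to 5′ difference as a covariate 0 P450 genes were lower (median -0.38) and 0 list genes were higher or lower; without a filter the median of all 56 was -0.15 and 0 list genes passed. Lower list genes numbered 4 with limma-trend, and 1 with the mean of a gene's probe sets, with a robust prior or without probe sets marked _s, _x or _a; higher ones numbered 0 with the robust prior, without those probe sets, or after median centring. The replicate block on the mouse number rests on the 4 mice numbered 1 and 3; with it 0 P450 genes were lower (median -0.49), 0 list genes passed, and the receptor median was -0.026. The deviations of same-numbered mice correlated at 0.02 and 0.30. The other alternatives gave 4 to 9 lower P450 genes and 0 higher.

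Signs turned where values lay near 0. The Cyp2b median was -0.057 without a filter, and Cyp2b10, its only tested gene, ran from -0.046 to 0.13 over the mice left out. Over the mice left out Cyp2c55 ran from -0.29 to 0.022, Cyp4f16 from -0.20 to 0.24, the receptor median from -0.021 to 0.11, the AhR target median from -0.025 to 0.18 and the PPARA target median from -0.072 to 0.12. With the covariate the AhR target median was -0.018, the arachidonic acid median 0.020 and Cyp4f16 -0.025. The PPARA target median was 0.0096 with array weights, and Cyp4f16 was -0.12 as the mean of its probe sets and -0.30 by its other one. The cause of these changes was not tested. Levels near the limit of 4, as for Cyp2u1 and Cyp2c29, are the least certain.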
